A study of Homo sapiens with 10 samples.

Results

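Neighbouring genes on human chromosome 3, from VWA5B2 through ALG3, ECE2, PSMD2, EIF4G1, FAM131A, CLCN2, POLR2H and THPO to CHRD, were followed in RNA libraries of Kasumi-1 cells. They were taken by name, 10 of 50868 genes in the table and of 2601 on that chromosome. The stretch was chosen by the folds of VWA5B2, CHRD and THPO over vector in these same libraries, so the folds are a description and no threshold sets members apart. Kasumi-1 is an established human myeloblast line whose 8;21 chromosome translocation fuses RUNX1 to RUNX1T1. The cells overexpressed E2-2 (from the gene TCF4), E2A (TCF3) or HEB (TCF12) after retrovirus infection, or carried the MIGR1 vector as control, and GFP-positive cells were sorted from each culture. RNA was taken 4 days after infection, and each of the 4 groups is 1 library with no replicate. The study asked how these E proteins differ in this leukemia.

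E proteins are basic helix-loop-helix transcription factors that bind, as dimers, to short DNA elements called E-boxes, written CANNTG. The neighbours serve unrelated tasks. CHRD codes for chordin, a secreted protein that captures bone morphogenetic proteins (BMPs) and keeps them from their receptors, and THPO codes for thrombopoietin, the hormone that drives platelet formation. ALG3, PSMD2, EIF4G1 and POLR2H encode parts of machinery that nearly every cell uses.

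In the table, VWA5B2 (ENSG00000145198) spans 184230429 to 184242329 and CHRD (ENSG00000090539) spans 184380073 to 184390736. Most of the RefSeq genes of the GRCh38.p14 build lie at nearly the same positions, with CHRD at 184380054 to 184390739. RefSeq, however, begins VWA5B2 at 184229585 and ends THPO at 184379688, both outside the rows of the table. ECE2 differs as well, as given below. The genes sit close together. The rows of VWA5B2 and ALG3 (ENSG00000214160, 184242301 to 184249548) overlap by 29 bases, and those of FAM131A (ENSG00000175182, 184335926 to 184346275) and CLCN2 (ENSG00000114859, 184346185 to 184361651) overlap by 91 bases. A gap of 1928 bases separates THPO (ENSG00000090534, 184371935 to 184378144) from CHRD, and one of 137743 bases separates VWA5B2 from CHRD. The row of EIF2B5, an initiation factor gene, runs from 184135038 to 184684758 and thus covers all 10 neighbours. Whether reads were counted by strand is not given in the sources used here, so reads in shared stretches cannot be assigned with certainty. RefSeq also places the microRNA gene MIR1224 inside VWA5B2, at 184241405 to 184241489, and it was not analysed here.

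The promoters of the genes at both ends of the region are shown because these genes were the ones far above vector, and that of ALG3 because it lies next to VWA5B2 and was not. The sequences are those of RefSeq (GRCh38.p14), 250 bases before a transcript start and 50 after it, with every CANNTG in capitals. RefSeq gives VWA5B2 a pair of starts and THPO several, of which the one nearest to CHRD is shown.
VWA5B2, first start, chr3:184229335-184229634, plus strand: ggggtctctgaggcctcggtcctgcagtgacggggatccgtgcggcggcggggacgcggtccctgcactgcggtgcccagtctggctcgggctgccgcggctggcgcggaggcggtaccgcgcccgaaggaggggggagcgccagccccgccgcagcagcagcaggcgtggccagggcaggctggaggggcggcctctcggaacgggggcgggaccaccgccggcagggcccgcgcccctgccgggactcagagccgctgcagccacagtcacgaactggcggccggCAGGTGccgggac
VWA5B2, second start, chr3:184230103-184230402, plus strand: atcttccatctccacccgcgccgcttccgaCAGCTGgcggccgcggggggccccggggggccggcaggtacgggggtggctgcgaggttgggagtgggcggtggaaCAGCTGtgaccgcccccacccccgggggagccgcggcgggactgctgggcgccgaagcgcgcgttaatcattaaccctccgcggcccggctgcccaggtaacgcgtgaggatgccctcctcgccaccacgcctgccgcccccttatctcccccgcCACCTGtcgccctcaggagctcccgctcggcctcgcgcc
CHRD, chr3:184379804-184380103, plus strand: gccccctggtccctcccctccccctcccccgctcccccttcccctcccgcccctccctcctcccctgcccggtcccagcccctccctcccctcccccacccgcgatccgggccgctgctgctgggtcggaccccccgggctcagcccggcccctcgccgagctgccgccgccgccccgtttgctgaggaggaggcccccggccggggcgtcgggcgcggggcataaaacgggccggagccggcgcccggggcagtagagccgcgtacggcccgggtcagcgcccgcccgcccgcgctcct
THPO, start nearest CHRD, chr3:184379639-184379938, minus strand: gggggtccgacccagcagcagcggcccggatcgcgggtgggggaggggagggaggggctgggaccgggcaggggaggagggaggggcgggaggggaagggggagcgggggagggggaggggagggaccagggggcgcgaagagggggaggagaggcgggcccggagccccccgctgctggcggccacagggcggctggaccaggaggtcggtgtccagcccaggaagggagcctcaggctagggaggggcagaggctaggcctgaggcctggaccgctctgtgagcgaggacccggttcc
ALG3, start nearest ECE2, chr3:184249476-184249775, minus strand: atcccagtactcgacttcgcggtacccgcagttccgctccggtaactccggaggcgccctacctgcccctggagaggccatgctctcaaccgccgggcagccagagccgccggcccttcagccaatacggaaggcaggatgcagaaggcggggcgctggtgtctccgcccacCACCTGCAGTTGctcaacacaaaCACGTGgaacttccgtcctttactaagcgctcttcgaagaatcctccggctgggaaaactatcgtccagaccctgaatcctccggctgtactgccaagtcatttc

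The promoter at the second VWA5B2 start held 3 E-boxes. Counting from the transcript start, with -1 as the base before it, CAGCTG began at -220 and again at -144, and CACCTG began at 12. The first start had 1, CAGGTG at 38. CAGGTG reads CACCTG on the other strand, while CAGCTG and CACGTG read the same on both. The CHRD promoter held no E-box in these 300 bases, and neither did the THPO promoter shown, which overlaps it by 135 bases on the opposite strand. The promoters at the inner THPO starts each held CAAATG, at -226 and at -225, which is the same site read from starts 1 base apart. RefSeq places the outer THPO start and the CHRD start 366 bases apart, reading away from each other. The ALG3 promoter held 3 E-boxes, CACCTG at -78, CAGTTG at -72 and CACGTG at -55. Over all 35116 promoters of the RefSeq table, 68.7% held a CANNTG, 17.9% a CAGCTG, 20.6% a CAGGTG or CACCTG and 7.26% a CACGTG, and 2.05% held CAGCTG at least 2 times. Of the 10 neighbours, 9 had a promoter in the table, with 20 promoters among them, and 7 of these genes held a CANNTG in at least 1 promoter. CAGCTG was found for 2 of them, VWA5B2 and FAM131A, and CAGGTG or CACCTG for 5. These are counts of genes, most with several promoters, so they cannot be set against the shares of single promoters above. E-boxes thus stood before genes far above vector and before genes near it. These matches describe letters in a window and not binding.

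The libraries held 14816708 counted reads for E2-2, 17673090 for E2A, 16791922 for HEB and 15728974 for vector, and levels are CPM, reads relative to the TMM-scaled size of the library. CPM values of single genes are set side by side within a gene, since they are not corrected for length. Limits in CPM over many genes and sums over marker lists do mix genes of unlike length. All intervals are 95% exact and cover counting error only. Measured means that the pair of libraries held 30 or more reads of a gene. Called means that a measured gene also differed by 2-fold or more with an interval that leaves out 1. Each transduced factor gene was highest in its own library, with TCF4 at 823 CPM in E2-2 and 0.256 in vector. The 7 markers of the labelled cell type, RUNX1T1, KIT, CD34, CD33, MPO, PTPRC and SPI1, had reads in every library, with summed levels of 12610.7 CPM in E2-2, 14566 in E2A, 19364 in HEB and 16174 in vector. MPO carried most of this sum, with 170661 reads in E2-2, 232710 in E2A and 298092 in HEB, against 231819 in vector. CD33 was called higher than in vector in all 3, and SPI1 in E2-2. All 7 were measured and 0 were called lower. Over all measured genes, 8.45% were called higher in E2-2, 4.89% in E2A and 2.55% in HEB. The median log2 fold of the 7 was -0.06 in E2-2 (-0.03 over all genes), -0.17 in E2A (-0.01) and 0.19 in HEB (0.01).

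VWA5B2, a gene for a protein with a von Willebrand factor A domain, had 2563 reads in E2-2, 656 in E2A and 359 in HEB, against 2 in vector. Its level was 169 CPM in E2-2, 37.1 in E2A and 21.7 in HEB, against 0.128 in vector. All 3 E protein libraries stood far above vector, and the intervals of all 6 ratios between libraries leave out 1. The fold over vector was 1318 (364.5 to 10889.7) in E2-2, 289.6 (79.8 to 2396) in E2A and 169 (46.5 to 1402) in HEB. Among all measured genes VWA5B2 ranked 2 by fold in E2-2, 2 in E2A and 1 in HEB.

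CHRD had 1708 reads in E2-2, 164 in E2A and 37 in HEB, against 2 in vector. Its levels were 112.6 CPM in E2-2, 9.28 in E2A and 2.24 in HEB, against 0.128 in vector. The order of the libraries is that of VWA5B2, with wider steps between them. The ratio to vector came to 878 (243 to 7259) in E2-2, 72.4 (19.7 to 603) in E2A and 17.4 (4.50 to 149) in HEB. By fold it ranked 3 in E2-2, 14 in E2A and 28 in HEB among measured genes, with genes without vector reads again placed at their bounds.

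THPO had 64 reads in E2-2, 11 in E2A and 0 in HEB, against 1 in vector. This is 4.22 CPM in E2-2 and 0.623 in E2A, against 0.0641 in vector, and the 0 reads in HEB were given a floor of 3 reads, or 0.181 CPM. The upper end of the exact two-sided interval for HEB is 0.223 CPM. E2-2 was the only library of the 4 in which the gene passed 1 CPM. THPO was 65.8-fold (11.4 to 2640.1) higher in E2-2 than in vector. In E2A, where both libraries together held fewer than 30 reads, the ratio to vector was 9.71 (1.41 to 418). HEB and vector both lay at or below 3 reads, and no fold is given.

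**Figure D1:**
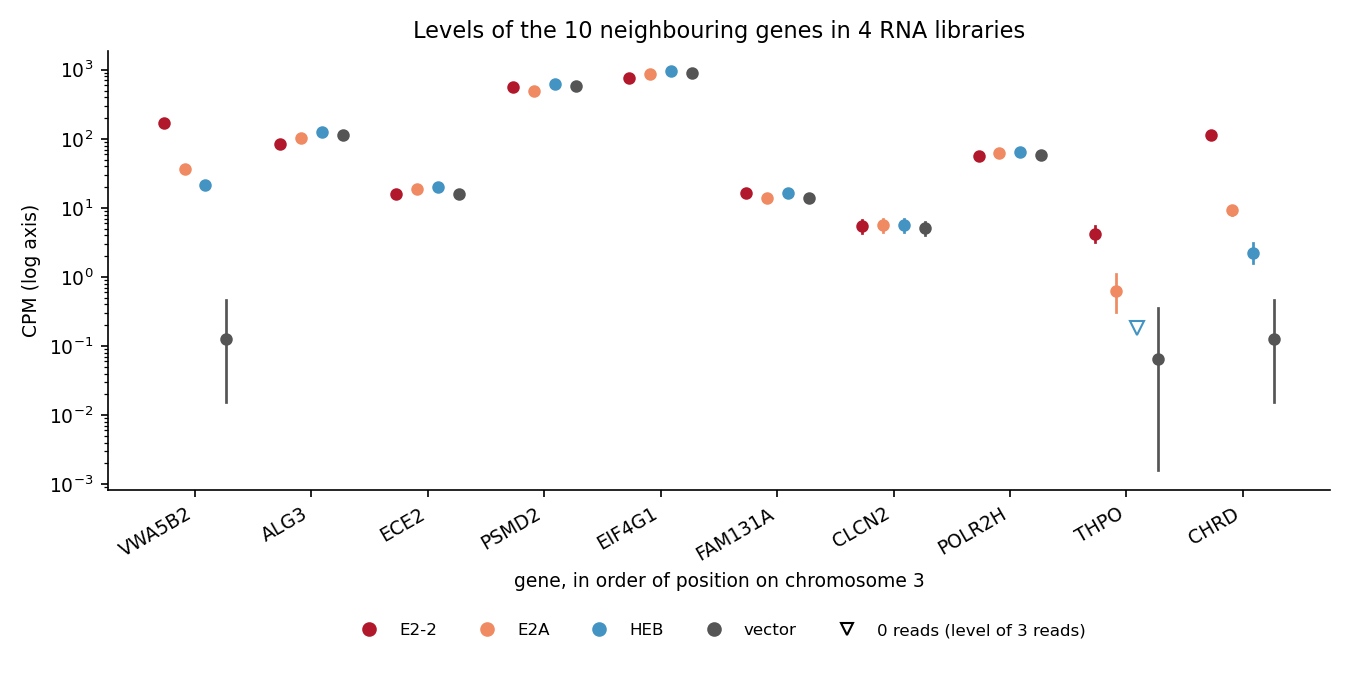
CPM on a log axis for each of the 10 neighbours in order of position, 1 point per library, with vertical lines for 95% exact counting intervals. VWA5B2 stands at 169 CPM in E2-2 against 0.128 in vector and CHRD at 112.6 against 0.128, while the 7 genes between VWA5B2 and THPO hold nearly level points. The open triangle marks THPO in HEB at the level of 3 reads. Heights are to be compared within a gene.

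Of the 10 neighbours, 3 were called higher in E2-2 than in vector (VWA5B2, THPO and CHRD) and 0 lower, where 8.45% of 13884 measured genes were called higher and 3.55% lower. In E2A 2 of 9 measured neighbours were called higher, VWA5B2 and CHRD, against 4.89% of 13901 genes, with 0 neighbours and 1.58% of genes lower. In HEB VWA5B2 and CHRD were again the 2 called higher of 9 measured, against 2.55% of 13695 genes, with 0 neighbours and 1.23% of genes lower. Nothing is read from these shares, since the region was chosen for these folds. A level of RNA in a whole culture does not tell whether more cells made a transcript or each cell made more of it. All 3 folds over vector rest on the same vector library with its 2, 2 and 1 reads for VWA5B2, CHRD and THPO, so they are not independent of each other.

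A gene near silence in vector cells that reached such levels was rare in the table. Of 33363 genes with at most 3 reads in vector, 241 reached 1 CPM in E2-2, 30 reached 10 CPM and 2 reached 100 CPM. Those 2 were VWA5B2 and CHRD. In E2A, 6 such genes reached 10 CPM, VWA5B2 among them, and in HEB 2 did, VWA5B2 again among them. CHRD stayed under 10 CPM in both. These limits were set after the levels of VWA5B2 and CHRD were known. They are not corrected for length, so a long transcript reaches them more easily than a short one.

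The 7 genes between VWA5B2 and THPO were called in none of the 6 comparisons of libraries. Of all measured genes, 12.0% of those in E2-2 and vector were called either way, 6.47% of those in E2A and vector, and 3.78% of those in HEB and vector. Between E2-2 and E2A the share was 5.25%, between E2-2 and HEB 7.66%, and between E2A and HEB 3.08%. ALG3, a mannosyltransferase that builds the sugar chain later moved onto proteins, had 84.4 CPM in E2-2, 102.6 in E2A and 124.8 in HEB, against 113.8 in vector. E2-2 held 1.35-fold (1.25 to 1.45) less of it than vector, the largest difference from vector among the 7, and the interval leaves out 1 without reaching 2. ALG3 was thus lowest in the library where its overlapping neighbour VWA5B2 was highest. Reads lost to the shared 29 bases were not tested as a part of this.

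PSMD2 (ENSG00000175166), a subunit of the regulatory particle of the proteasome, had 557 CPM in E2-2, 487 in E2A and 630.4 in HEB, against 582 in vector. E2A held 1.19-fold (1.16 to 1.23) less of it than vector. EIF4G1 (ENSG00000114867), the scaffold on which the cap-binding complex of translation assembles, had 771 CPM in E2-2, 858 in E2A and 954 in HEB, against 885 in vector. The EIF4G1 ratio to vector was 0.871 in E2-2, 0.970 in E2A and 1.08 in HEB. At the depth of PSMD2 and EIF4G1, with 8447 or more reads in each library, differences this small can lie outside counting error, and all were well inside 2-fold. With plain summed counts in place of TMM, the intervals of PSMD2 in E2-2 (0.959 to 1.02) and of EIF4G1 in E2A (0.955 to 1.0003) included 1.

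POLR2H (ENSG00000163882), a subunit that all nuclear RNA polymerases share, had 56.3 CPM in E2-2, 61.4 in E2A and 65.1 in HEB, against 59.1 in vector. ECE2 (ENSG00000145194), an endothelin-converting enzyme, had 16.1 CPM in E2-2, 18.8 in E2A and 19.9 in HEB, against 16.2 in vector. The table's ECE2 row starts at 184249650, while RefSeq's ECE2 starts at 184276022 after the gene EEF1AKMT4, so the row may hold reads of both. FAM131A had 16.5 CPM in E2-2, 13.8 in E2A and 16.6 in HEB, against 14.1 in vector. CLCN2, a chloride channel gene, had 82 reads in E2-2, 99 in E2A and 93 in HEB, against 79 in vector. Its ratio to vector was 1.07 (0.774 to 1.47) in E2-2, so at this depth a true ratio anywhere in that interval cannot be told from 1.

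Over the 7 genes the log2 fold ran from -0.43 to 0.23 in E2-2 (median -0.06), from -0.26 to 0.22 in E2A (median -0.04) and from 0.11 to 0.30 in HEB (median 0.14). The medians over all measured genes were -0.03 for E2-2, -0.01 for E2A and 0.01 for HEB. The interval excluded 1 for 3 of the 7 in E2-2, for 3 in E2A and for 5 in HEB, where all 7 lay above vector. The region thus held its high folds at both ends, with near-level genes in between.

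**Figure D2:**
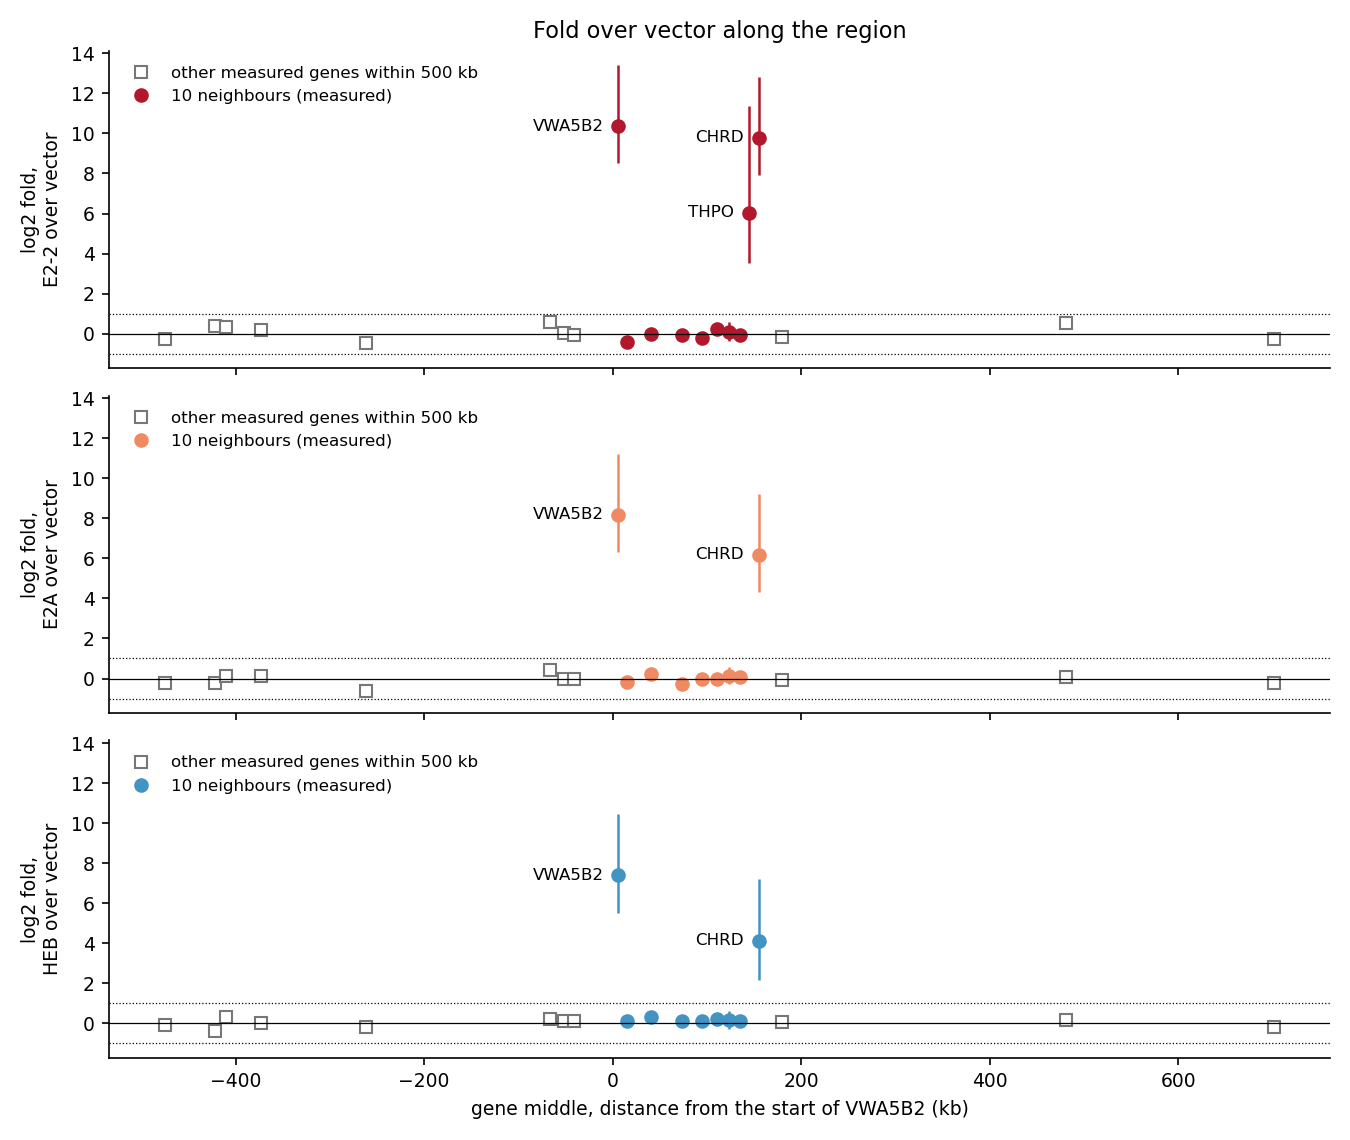
Log2 fold over vector against the distance of each gene's middle from the start of VWA5B2 in kb, 1 panel each for E2-2, E2A and HEB; filled points are the measured neighbours with 95% exact intervals, open squares the other measured genes of the flanks of 500000 bases, and dotted lines mark 2-fold. VWA5B2 and CHRD stand at log2 10.36 and 9.78 in E2-2, THPO at 6.04, and every open square lies within 2-fold of vector in all panels. The square beyond CHRD nearest to it is EIF2B5, whose long row covers the whole region.

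Other genes around the region gave the same flat picture. From 500000 bases before VWA5B2 to 500000 after CHRD the table held 33 further genes, of which 11 were measured in each comparison with vector and 0 were called in E2-2, E2A or HEB. Just outside VWA5B2 lies ABCF3, a gene of the ATP-binding cassette family, with 1217 reads in E2-2, 1469 in E2A and 1532 in HEB, against 1334 in vector. Beyond CHRD, RP11-433C9.2 had 0 reads in all 4 libraries, and the ephrin receptor gene EPHB3 had 9 in E2-2, 6 in E2A and 8 in HEB, against 9 in vector. Within the region, CAMK2N2, which encodes an inhibitor of a calmodulin-dependent kinase, had 11 reads in E2-2, 5 in E2A and 3 in HEB, against 4 in vector, too few to be measured. Among the 11 measured genes the highest ratio in E2-2 was that of DVL3, a Wnt pathway gene, at 1.52, and the lowest that of ABCC5, a transporter gene, at 0.730. Chromosome 3 as a whole was close to the table, with 66 of 788 measured genes called higher in E2-2, 35 of 799 in E2A and 17 of 779 in HEB.

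Large folds lay near each other elsewhere too. In E2-2, 151 genes were at least 20-fold higher than in vector, 1.09% of measured genes, and 43 of them (28.5%) had another such gene within 200000 bases. In E2A these numbers were 72 genes (0.518% of those measured) and 24 with a neighbour, and in HEB they were 22 genes (0.161%) and 2. CHRD, at 17.4-fold, was not among the 22 in HEB. The counts with a neighbour include VWA5B2, THPO and CHRD in E2-2, and VWA5B2 and CHRD in E2A. Some other pairs had 0 bases between their rows or came from families of similar sequence, such as T cell receptor beta segments. Reads shared within such pairs were not tested as a part of these counts. Most such pairs had few genes between them. Of 34 pairs in E2-2, 3 enclosed at least 7 measured genes that were not called higher: VWA5B2 with CHRD, VWA5B2 with THPO, and EPS8L2 with CRACR2B on chromosome 11. Of 24 pairs in E2A, 1 did, VWA5B2 with CHRD. The number 7 was set after the region was known.

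The libraries with E proteins were then set against each other directly, which leaves out the vector library and its few reads. VWA5B2 was 4.55-fold (4.18 to 4.97) higher in E2-2 than in E2A, and CHRD was 12.1-fold (10.3 to 14.3) higher. THPO was 6.78-fold (3.55 to 14.3) higher in E2-2 than in E2A. In this comparison 3 of 10 neighbours were called higher, against 3.63% of 14066 measured genes, with 0 neighbours and 1.61% of genes lower. Nothing is read from this share, since the folds that chose the region rest on the same E2-2 reads. THPO was measured here only through its 64 reads in E2-2.

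Against HEB the differences were larger. VWA5B2 was 7.79-fold (6.97 to 8.72) higher in E2-2 than in HEB, and CHRD was 50.4-fold (36.4 to 71.8) higher. THPO was at least 23.3-fold higher in E2-2, with the 0 reads of HEB set to 3, and the exact two-sided interval against 0 reads starts at 18.4. Here 3 of 10 neighbours were called higher, against 6.09% of 13891 genes, with 0 neighbours and 1.57% of genes lower. Between E2A and HEB, CHRD was 4.15-fold (2.89 to 6.10) higher in E2A and VWA5B2 1.71-fold (1.502 to 1.95). The VWA5B2 interval excludes 1 but the fold is under 2, so 1 of 9 measured neighbours was called higher, against 2.38% of 13944 genes, with 0 neighbours and 0.696% of genes lower. These comparisons share libraries and are not independent. Nothing is read from their shares either, since the region was chosen by folds in these same libraries.

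VWA5B2 and CHRD therefore shared the order of the libraries but not the size of the steps. This can be seen without any scaling from the reads of both genes within a library. CHRD gave 40.0% (38.5 to 41.5, Clopper-Pearson) of the reads of the pair in E2-2, 20.0% (17.3 to 22.9) in E2A and 9.34% (6.66 to 12.6) in HEB. The 3 intervals do not overlap. The 2 reads of each gene in vector are too few for a share. THPO gave 3.61% (2.79 to 4.59) of the reads of THPO and CHRD in E2-2 and 6.29% (3.18 to 10.97) in E2A, with overlapping intervals, and 0 of 37 in HEB, which allows up to 9.49%.

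**Figure D3:**
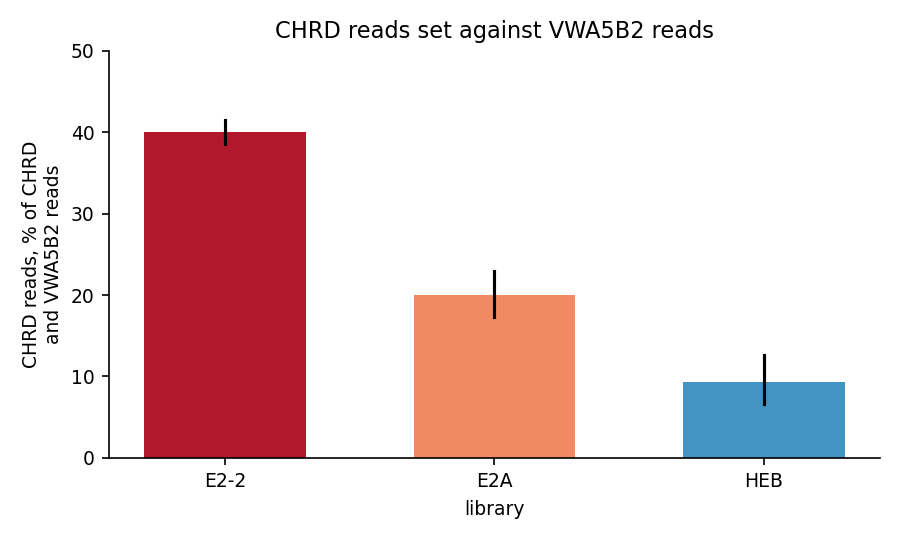
CHRD reads as a percentage of the reads of CHRD and VWA5B2 together, 1 bar per E protein library, with black lines for 95% Clopper-Pearson intervals. The share is 40.0% in E2-2, 20.0% in E2A and 9.34% in HEB; vector is left out because it held 2 reads of each gene.

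Genes elsewhere with the most similar pattern were sought among 15684 genes. Likeness was the Euclidean distance between the 3 log2 ratios to vector, computed with 0.5 reads added, over the 4 libraries. Nearest to VWA5B2 were MYBPH (distance 1.41), ADRA2B (1.51), ANTXRLP1 (1.61), an immunoglobulin kappa variable segment on chromosome 2 (1.64) and KRT16 (1.83). Nearest to CHRD were H19 (1.23), PRSS2 (1.52), BMP3 (1.81), TNFRSF19 (2.01) and CD9 (2.13). The immunoglobulin segment, KRT16 and PRSS2 belong to families of near-identical sequences, so their counts are uncertain. VWA5B2 and CHRD were not each other's nearest genes: they lay 3.87 apart, with 22 genes closer to VWA5B2 than CHRD was. All 10 listed genes had 0 or 1 reads in vector, so the distances carry large counting error.

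CHRD was next placed among other genes of BMP signalling. In this pathway, BMP ligands bind type I and type II receptors, which activate SMAD1, SMAD5 and SMAD9, and these with SMAD4 switch on targets such as the ID genes. Antagonists like chordin and noggin hold the ligands outside the cell, and proteases of the BMP1 and tolloid family cut chordin and free them. Of 11 ligand genes listed, 2 were measured in each comparison with vector. GDF7 was called higher in E2-2, with 66 reads in E2-2, 25 in E2A and 37 in HEB, against 23 in vector. Over all measured genes, 8.45% were called higher in E2-2. The list left out BMP3, named above among the genes nearest to CHRD. BMP3 had 174 reads in E2-2, 29 in E2A and 21 in HEB, against 0 in vector.

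Of 18 antagonist and processing genes, 9 were measured in E2-2, of which 3 were called higher and 1 lower, where 8.45% of all measured genes were higher and 3.55% lower (median log2 fold 0.25, against -0.03 over all measured genes). In E2A 2 of 8 were called higher (4.89% of all genes) and 0 lower, and in HEB 2 of 8 higher (2.55%) and 1 lower (1.23%). CHRD, chosen for its fold, is 1 of those called higher each time. The median log2 fold of the list was 0.03 in E2A (-0.01 over all genes) and -0.29 in HEB (0.01), so it lay below the table in HEB. SOST, which encodes sclerostin, an antagonist known mainly from the Wnt pathway in bone, had 96 reads in E2-2, 35 in E2A and 33 in HEB, against 0 in vector. With vector set to 3 reads it was at least 32.9-fold higher in E2-2, at least 10.3-fold in E2A and at least 10.4-fold in HEB. The exact two-sided intervals against 0 reads start at 26.3 in E2-2, 7.94 in E2A and 7.97 in HEB. TLL2 had 28 reads in E2-2, 3 in E2A and 8 in HEB, against 4 in vector, and was called in E2-2 (7.20-fold, 2.52 to 28.2).

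NOG, the gene of noggin, stood below vector where CHRD stood above it. It had 79 reads in E2-2, 147 in E2A and 106 in HEB, against 221 in vector. NOG fell 2.72-fold (2.09 to 3.56) in E2-2 and 2.21-fold (1.75 to 2.82) in HEB, while its ratio to vector in E2A, 0.587 (0.473 to 0.727), was not called. TWSG1, FSTL1, FSTL3, NBL1 and the protease gene BMP1 were measured in E2-2 and not called.

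Of 11 receptor genes listed, 10 were in the table and 5 were measured. BMPR2, a type II receptor, was the 1 of these 5 called in E2-2, where 8.45% of all measured genes were called higher. It was 2.37-fold (2.12 to 2.66) higher, with 66.9 CPM against 28.2 in vector, and none was called in E2A or HEB. The median log2 fold of the 5 lay below that of all measured genes. It was -0.38 in E2-2 (-0.03 over all genes), -0.25 in E2A (-0.01) and -0.09 in HEB (0.01). Of 10 SMAD and target genes 8 were measured, with 3 called higher in E2-2 (8.45% of all measured genes), 2 in E2A (4.89%) and 1 in HEB (2.55%) and 0 lower. SMAD1 had 1065 reads in E2-2, 461 in E2A and 428 in HEB, against 315 in vector, and was called in E2-2 (3.48-fold, 3.06 to 3.96). The other calls were ID2 and ID3, of which ID2 had 2506 reads in E2-2, 2386 in E2A and 456 in HEB, against 256 in vector, and ID3 had 1360 in E2-2, 709 in E2A and 241 in HEB, against 41 in vector. ID proteins are also known as partners that keep E proteins off DNA. Among all measured genes of the 4 BMP lists, CHRD had the largest fold in E2-2, E2A and HEB, leaving aside SOST, whose folds are bounds. Nothing is read from this place, since CHRD was chosen for these folds.

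**Figure D4:**
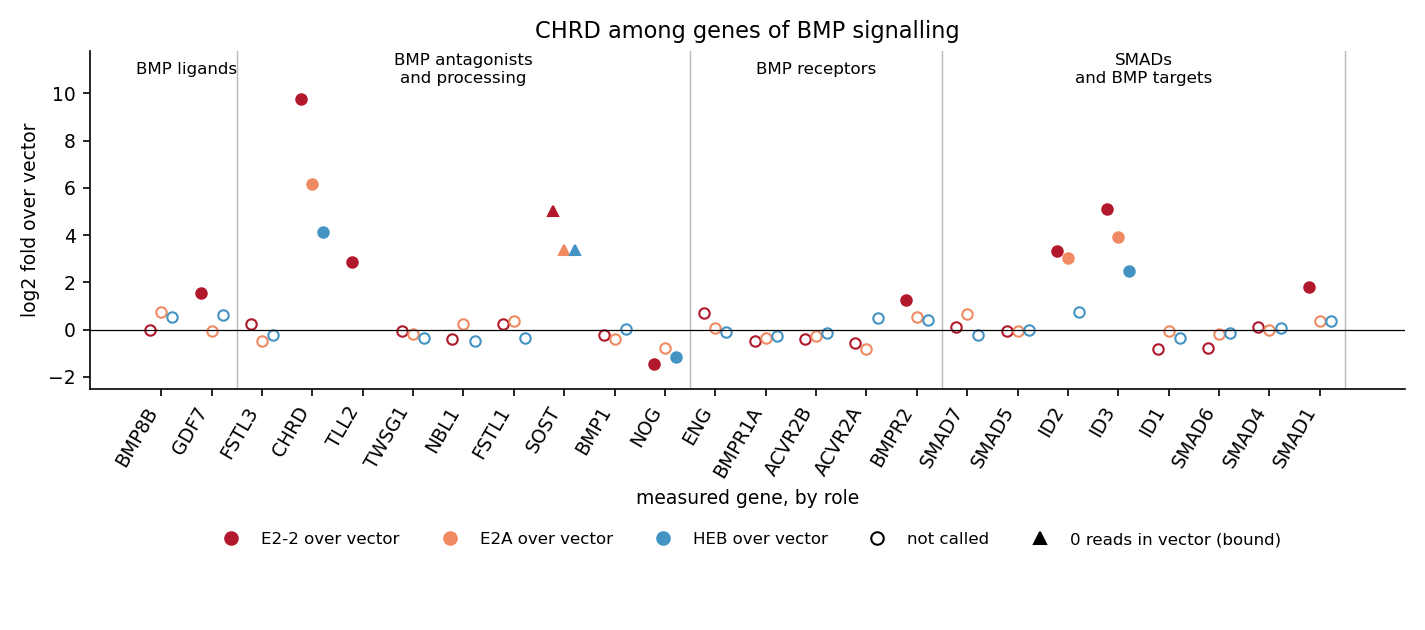
Log2 fold over vector of every measured gene of 4 lists of BMP signalling, ordered by role, with 1 point each for E2-2, E2A and HEB; filled points are called, open ones are not, and triangles are bounds for genes with 0 reads in vector. CHRD stands at log2 9.78 in E2-2, 6.18 in E2A and 4.12 in HEB, while the NOG ratio to vector is 0.368 in E2-2.

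THPO was read beside other genes of its pathway, among them JAK2, the STAT genes and their targets. In E2-2, 4 of 16 measured genes of this list were called higher, THPO, SOCS1, PIM1 and BCL2L1, where 8.45% of all measured genes were. THPO was itself chosen for its fold. In E2A 2 of 15 were called higher (4.89% of all genes), SOCS1 and PIM1, and in HEB 1 of 15 (2.55%), SOCS1. The list as a whole stayed near level. Its median log2 fold in E2-2 was -0.01, against -0.03 over all measured genes. SOCS1, a feedback inhibitor of cytokine signalling, had 107 reads in E2-2, 34 in E2A and 31 in HEB, against 4 in vector. It rose 27.5-fold (10.4 to 103) in E2-2. PIM1, a kinase gene that cytokines switch on, had 405 reads in E2-2, 296 in E2A and 190 in HEB, against 92 in vector. BCL2L1, which encodes a protein that protects cells from apoptosis, had 1133 reads in E2-2, 867 in E2A and 658 in HEB, against 409 in vector. The kinase gene JAK2 had a ratio to vector of 1.205 (1.04 to 1.39) in E2-2 and was not called.

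Most partner lists of the genes between held no call against vector. None of 32 measured proteasome genes, 21 genes of the dolichol-linked sugar chain, 10 RNA polymerase II subunit genes or 6 CLC channel genes was called in E2-2, E2A or HEB. The same held for 15 genes of cap-binding initiation in E2-2 and 16 in E2A and in HEB. Over all measured genes 12.0% were called either way in E2-2, 6.47% in E2A and 3.78% in HEB. A short list without a call therefore says little. Of 3 measured genes around endothelin-converting enzymes, PHEX, a membrane peptidase gene, was called in E2-2, with 77 reads against 9 in vector. FAM131B was called lower in E2-2, with 7 reads against 23 in vector, and in E2A, with 12. HEB held the fewest FAM131B reads, 5, with a ratio to vector of 0.205 (0.0609 to 0.551). HEB and vector together held too few reads of FAM131B for it to be measured, so it was not called there. Of 5 measured von Willebrand A genes VWA5B2 was the single call in all 3 comparisons, and its closest relative by name, VWA5B1, had 16 reads in E2-2, against 18 in vector.

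Markers of other cell types were read beside these levels. The 12 neuronal and neuroendocrine markers summed to 15.1 CPM in E2-2, 8.999 in E2A and 9.37 in HEB, against 9.49 in vector. Of 4 measured, SYP was called higher in E2-2, with 131 reads against 39 in vector, and CHGB lower in E2-2 and E2A, while STMN2 had 0 reads in all 4 libraries. The 6 megakaryocytic markers summed to 9.10 CPM in E2-2, 6.40 in E2A and 9.79 in HEB, against 6.15 in vector. Of 2 measured in E2-2, GP9 was called higher, with 55 reads against 1 in vector, and PPBP and GP1BB had 0 reads in all libraries. Over all measured genes 8.45% were called higher in E2-2 and 3.55% lower, and 1.58% were called lower in E2A. Hepatocytes are the main source of thrombopoietin, and the 4 hepatocyte markers summed to 17.1 CPM in E2-2, 46.2 in E2A and 53.3 in HEB, against 95.1 in vector, nearly all of it SERPINA1. The 10 cartilage, epithelial and fibroblast markers gave 45.4 CPM in E2-2, 51.1 in E2A and 44.8 in HEB, against 58.7 in vector, and the 5 lymphoid markers gave 1.71 CPM in E2-2, 2.55 in E2A and 3.02 in HEB, against 4.94 in vector. The 1 measured hepatocyte marker was called lower in E2-2 and E2A. Of 2 measured lymphoid markers, 1 was called lower in all 3 comparisons with vector, where 1.23% of all measured genes were lower in HEB. No cartilage, epithelial or fibroblast marker was called. The part of these other cell types in the levels of VWA5B2, CHRD and THPO was not tested.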

How the data were processed

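The authors deposited a table of 50868 Ensembl genes with whole-number read counts and FPKM values for 4 RNA libraries, per the file headers. Per the submitters' processing notes, the tools were HTSeq 0.9.1, TopHat2 2.0.9, MACS2 2.1.1.20160309 and Bowtie2 2.2.9, with hg19 and hg38 as builds. The role of each tool, the annotation and the strand setting were not given in the sources used here. Every row names a gene, and 19680 rows had no read in any library. The HA ChIP-seq libraries and inputs, taken 3 days after infection, were not used here.

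Counts were scaled with TMM in edgeR 4.0.16 (R 4.3.3). With 1 library per group there is no test and no p-value. Folds are ratios of scaled counts with Clopper-Pearson intervals of the conditional binomial distribution, computed for the whole table in Python 3.11.15 with scipy 1.17.1. To form a fold, 3 reads stood in for 0, which makes it a bound, and pairs with 3 reads or fewer in both libraries got none. Interval coverage and calls were tested on simulated counts. Intervals cover counting error only, since PCR copies of 1 molecule cannot be told from separate molecules. In the E2-2 library the length implied by the authors' FPKM exceeded the gene's own span for 6 of the 10 neighbours, so FPKM served only as an alternative unit, within a gene.

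The named genes are the 10 neighbours, called genes of the partner lists (up to 6 a list), called or bordering genes of the 500000-base flanks, and the 5 most alike genes for VWA5B2 and for CHRD. A gene of the lists is not reported here. The neighbours, lists and tests were chosen with earlier results of these data known.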

Additional observations from a re-analysis of the deposited data

How the results depend on the processing

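VWA5B2 and CHRD were called higher in E2-2 and in E2A against vector, and VWA5B2 in HEB, under every alternative run: summed counts, DESeq2 1.42.0 size factors, no read minimum, at least 100 reads, a 1.5-fold threshold and the authors' FPKM. With at least 100 reads CHRD was no longer measured in HEB, which left 1 neighbour called there, and THPO was no longer measured in E2-2. The FPKM alternative leaves out genes listed at 0, which takes THPO from the comparison of E2-2 with HEB. Without a read minimum THPO was called in E2A against vector as well, which made 3 neighbours there. Between E2A and HEB, 2 neighbours were called without a read minimum (THPO and CHRD) and 2 at 1.5-fold (VWA5B2 and CHRD). At 1.5-fold 1 gene of the flanks was called in E2-2 (DVL3) and 1 in E2A (ABCC5).

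Counts over the whole table moved more. With at least 100 reads, 1038 genes were called in E2-2, 478 in E2A and 238 in HEB against vector. Among E proteins this setting gave 365 (E2-2 with E2A), 606 (E2-2 with HEB) and 174 (E2A with HEB). At 1.5-fold the counts against vector were 3187 in E2-2, 1866 in E2A and 1168 in HEB, and those among E proteins were 1556 (E2-2 with E2A), 2327 (E2-2 with HEB) and 1077 (E2A with HEB). Without a read minimum there were 1388 in E2A and 876 in HEB against vector, 1134 between E2-2 and E2A and 803 between E2A and HEB. Genes at least 10-fold higher with such a neighbour numbered 87 in E2-2, 47 in E2A and 13 in HEB. In the 150 bases before the start alone, 1 neighbour held CAGCTG and 3 held CAGGTG or CACCTG. Summed counts and FPKM moved the E2-2 ratios of PSMD2 to 0.988 and of EIF4G1 to 0.899. For summed counts the PSMD2 interval then included 1.

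No paired analysis was possible because each group is 1 library, and for the same reason no library was left out. The folds of VWA5B2, CHRD and THPO over vector have wide intervals. Differences between cultures are not covered by any interval.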
